A study of Mus musculus with 4 samples.

Results

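The miRNA content of exosomes from 1 mouse colon cancer line, C26, was compared between 2 isolation kits. The tested library came from the Wako kit, an ELISA-format capture kit with a streptavidin-HRP readout, and the library it was set against came from ExoQuick-TC, a reagent that precipitates vesicles out of conditioned medium. All mature miRNAs with at least 10 reads in either of these libraries were taken, which gave 350 of the 795 miRNAs in the table. Of the 350, 160 had at least 10 reads in the Wako library, 346 had them in the ExoQuick library, and 156 had them in both. The study also holds a Wako and an ExoQuick library of exosomes from MC38, another mouse colon cancer line. That pair shares no library with the C26 pair, and its values for the same miRNAs are given alongside. All 4 libraries came from cells grown in exosome-free medium, and no genotype, passage or treatment other than that medium is named. Each kit and line was sequenced as 1 library. The labels do not say whether both C26 libraries were made from the same culture, so kit, culture and sequencing depth cannot be told apart in any ratio below. Neither kit's yield can be checked against vesicle proteins from these files, which hold miRNAs only.

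A miRNA is cut from a hairpin precursor whose 5p and 3p arms can each give a mature strand. One arm, the guide strand, is usually kept in an Argonaute protein, and the other, the passenger strand, is mostly lost. The mature strand finds its targets mainly through its seed, bases 2 to 8 from the 5′ end, and miRNAs with the same seed form a family with overlapping targets. Outside cells, miRNAs travel in vesicles such as exosomes and also in protein complexes. Precipitation brings down vesicles together with other material in the medium, whereas capture on a plate holds the particles that its ligand binds.

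The sequences on which the results turn are given first, written 5′ to 3′ in lower case with the seed in capitals. They are RefSeq mature sequences on mouse build GRCm38.p6, where 293 of the 350 miRNAs were found. The genome build behind the deposited values is not given in the sources used here. The first set is the let-7 family, shown because close copies with 1 shared seed had kit ratios from 0.409 to 48.0, in falling order of that ratio.
let-7f-5p: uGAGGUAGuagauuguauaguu
let-7e-5p: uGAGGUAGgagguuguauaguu
let-7a-5p: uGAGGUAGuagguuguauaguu
let-7d-5p: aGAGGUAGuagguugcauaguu
let-7g-5p: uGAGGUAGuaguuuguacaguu
let-7c-5p: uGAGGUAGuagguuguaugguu
miR-98-5p: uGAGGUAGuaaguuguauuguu
let-7b-5p: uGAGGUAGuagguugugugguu
let-7i-5p: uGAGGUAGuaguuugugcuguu
let-7k: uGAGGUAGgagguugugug

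The second set is the miR-130 and miR-301 family, shown because members with the same seed lay on opposite sides of equality.
miR-301a-3p: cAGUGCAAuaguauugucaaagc
miR-130b-3p: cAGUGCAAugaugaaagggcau
miR-130a-3p: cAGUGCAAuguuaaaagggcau

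The third set holds entries with the highest ratios, which share no seed with each other.
miR-3963: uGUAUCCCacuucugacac
miR-5100: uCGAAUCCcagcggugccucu
miR-690: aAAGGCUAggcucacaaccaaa
miR-223-3p: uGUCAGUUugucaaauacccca
miR-706: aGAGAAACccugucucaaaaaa
miR-3102-3p: gAGCACCCcauuggcuacccaca

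The fourth set gives both arms of Mir29b-1 and Mir25, hairpins whose arms had kit ratios far apart.
miR-29b-1-5p: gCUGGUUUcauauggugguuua
miR-29b-3p: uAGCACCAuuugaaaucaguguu
miR-25-5p: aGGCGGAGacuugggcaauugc
miR-25-3p: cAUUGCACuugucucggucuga

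The depths were far apart. The authors' values are reads per 1000000 reads of a library total (RPM), from which whole reads could be worked back. That total was 33692 reads for C26 Wako and 1356801 for C26 ExoQuick, so that 1 read was worth 29.7 RPM with Wako and 0.737 RPM with ExoQuick. The totals were 3867 reads for MC38 Wako and 340643 for MC38 ExoQuick. A miRNA with 0 reads could still lie at up to 89.0 RPM in the C26 Wako library and 2.21 RPM in the C26 ExoQuick library, taking 3 reads as the limit. Of the 350 miRNAs, 52 had 0 reads with Wako and 0 had 0 reads with ExoQuick. None of those 52 had an interval that lay below equality, so none was shown to be missing from the Wako material. A further limit follows from depth: 124 of the 350 would give less than 1 Wako read on average if both libraries held them at the same level. All intervals here cover counting error only: without molecular identifiers, several reads may stem from 1 molecule.

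The depth also set which miRNAs entered the comparison. Through Wako reads alone came 4 miRNAs: miR-5100 with 83 Wako and 6 ExoQuick reads, miR-3963 with 25 Wako and 1 ExoQuick, miR-3968 with 15 Wako and 3 ExoQuick, and miR-27a-5p with 11 Wako and 5 ExoQuick. Through ExoQuick reads alone came 190. Just inside the limit, 6 miRNAs had 10 reads in their higher library, among them miR-184-3p and miR-221-5p. Just outside, 8 had 9 reads, among them the red cell miRNAs miR-451a with 8 Wako and 9 ExoQuick reads and miR-144-5p with 7 Wako and 9 ExoQuick reads.

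Fewer miRNAs made up the bulk of the ExoQuick library. The reads summed over all listed miRNAs came to 34877 for C26 Wako and 1434877 for C26 ExoQuick, and 11 miRNAs held 50% of them with Wako against 6 with ExoQuick. The 10 miRNAs with the most reads in each library held 48.0% of its listed reads with Wako and 67.1% with ExoQuick. A read was listed for 407 miRNAs with Wako and for 687 with ExoQuick. At 34877 listed reads in each, the expected number was 407 with Wako and 280 with ExoQuick, so at equal depth the Wako library held more kinds of miRNA.

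For the 140 miRNAs that averaged 300 RPM or more over the C26 pair, log2(RPM + 1) of the C26 Wako library had a Pearson r of 0.623 and a Spearman rho of 0.591 with the C26 ExoQuick library. With the MC38 Wako library it had 0.672 and 0.805. The MC38 Wako library in turn had 0.628 and 0.673 with the MC38 ExoQuick library of its own line, and 0.564 and 0.687 with the C26 ExoQuick library. Between the ExoQuick libraries of C26 and MC38 the values were 0.727 and 0.730. These values are across miRNAs, which are not independent replicates. The 140 were chosen on the C26 mean, and 35 of them met that limit through C26 Wako alone. Several miRNAs that were scarce in MC38 ExoQuick were abundant in both Wako libraries: miR-214-3p, for example, stood at 31165 RPM in C26 Wako and 68331 RPM in C26 ExoQuick, and at 22498 RPM in MC38 Wako and 443 RPM in MC38 ExoQuick. The MC38 values below rest on this MC38 Wako library of 3867 reads, and the C26 ratios do not use it. Whether the MC38 Wako library holds material or reads of the C26 Wako library was not tested, so the MC38 ratios cannot be taken as independent of the C26 ones.

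A kit ratio is RPM with Wako over RPM with ExoQuick, with its exact 95% interval (Clopper-Pearson on the reads of both libraries), and a miRNA is called higher or lower where that interval lies wholly past 2-fold. No test of the kits can be had from 1 library a side. In C26, 83 of 350 miRNAs were called higher with Wako (23.7%) and 9 were called lower (2.57%). The interval lay wholly above 1 for 120 and wholly below 1 for 41, and it held 1 for 189. The 83 miRNAs called higher held 37.4% of the listed reads with Wako and 3.18% with ExoQuick. The 9 called lower held 17.2% with Wako and 44.4% with ExoQuick. The reach was unequal, since a miRNA with 0 Wako reads needed at least 299 ExoQuick reads, or 220 RPM, to be called lower. Only 125 of the 350 had that many.

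Among the 140 miRNAs at a mean of 300 RPM, 47 were called higher with Wako (33.6%) and 9 lower (6.43%). Their median log2 ratio was 0.30, with quartiles of −0.64 and 2.48. Since the limit is on the mean, a miRNA could meet it through 1 kit: 98 of the 140 reached 300 RPM with both kits, 35 with Wako alone and 7 with ExoQuick alone. The interval lay wholly past 8-fold higher for 22 of the 140 and wholly past 8-fold lower for 0, and for 6 and 0 of the 98. With TMM scaling the counts past 8-fold were 10 higher and 6 lower of the 140, and 1 higher and 5 lower of the 98. For 37 of the 140 the whole interval lay between 0.5 and 2. The plot of the levels by kit shows these groups.

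**Figure D1:**
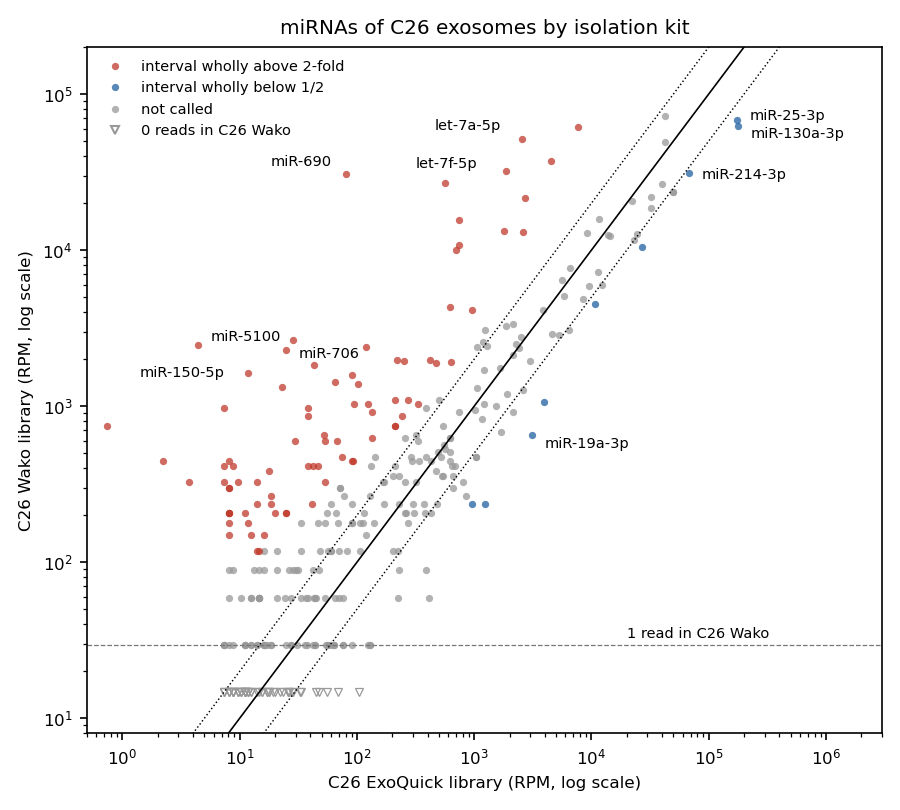
Level of each of the 350 miRNAs in the C26 Wako library (vertical axis) and the C26 ExoQuick library (horizontal axis), both in RPM on log scales. The solid line marks equal levels and the dotted lines 2-fold differences, and open triangles mark the 52 miRNAs with 0 Wako reads. The 83 red points lie above the upper dotted line, up to the 7656 RPM with ExoQuick of let-7c-5p, and the 9 blue points lie below the lower dotted line at ExoQuick levels from 954 to 178339 RPM.

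Counts in each direction depended on how the libraries were scaled, because the ratio compares shares of a library. Of those called with the authors' library totals, 90.2% were higher. Median-of-ratios scaling gave 64 higher and 35 lower (64.6% higher). Upper-quartile scaling gave 63 and 35 (64.3%), and scaling without the 10 miRNAs of highest mean gave 70 and 28 (71.4%). With edgeR's TMM factors the split was 41 higher and 90 lower (31.3%). Against the authors' scale these moved every log2 ratio by −0.80, −0.84, −0.55 and −1.85. A ratio of 1.74, 1.79, 1.47 or 3.61 on the scale used below thus becomes 1 under the corresponding scaling. No scaling changes the order of the miRNAs, and ratios above 3.61 or below 0.979 keep their direction under all 5 scalings tried.

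The highest ratios belonged to entries that were scarce in the ExoQuick library. miR-690 had 30601 RPM (1031 reads) with Wako, against 80.3 RPM (109 reads) with ExoQuick, a ratio of 381 (312 to 468). Its RefSeq hairpin Mir690 lies on chromosome 16 from 28599935 to 28600043 on the minus strand, within an intron of Fgf12. miR-706 had 2285 RPM with Wako and 25.1 RPM with ExoQuick, a ratio of 91.2 (60.2 to 141). Both were also higher with Wako in MC38, where the ratio of miR-690 was 107 (78.6 to 145) and that of miR-706 was 32.7 (15.9 to 63.4). A search of the mature sequences in GENCODE transcripts other than miRNAs found miR-706 whole in transcripts of 222 genes and miR-690 in those of 3. Whether reads of those transcripts entered the counts was not tested.

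miR-5100 had 2463 RPM (83 reads) with Wako and 4.42 RPM (6 reads) with ExoQuick, a ratio of 557 (245 to 1562). RefSeq places Mir5100 on the plus strand of chromosome 11, from 60728663 to 60728726, inside an intron of Mief2. miR-3963 had 742 RPM (25 reads) with Wako and 0.737 RPM (1 read) with ExoQuick, so its ratio of 1007 has an interval from 165 to 41336. Neither sequence was found whole in any transcript outside the miRNA class. In MC38, miR-5100 had 1 read with Wako and 0 with ExoQuick, which passes the call rule on a single read (lower bound 2.26), and miR-3963 had none.

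These belong to the entries numbered 3000 and above in the miRNA registry, most of which were added to it late. Of 261 such entries 34 met the limit of 10 reads. Of those 34, 10 were called higher and 0 lower, against 23.7% and 2.57% of all 350. Of the 10 called, miR-5100, miR-3963 and miR-3968 had met that limit through Wako reads alone and so had to be higher with Wako. Without them 7 of 31 were called higher, near the share of all 350. Summed, the 34 had 10596 RPM with Wako and 1174 RPM with ExoQuick, a ratio of 9.02 (8.02 to 10.1), which was 4.76 (4.03 to 5.59) without those 3. The sum was carried by few entries, and 12 of the 34 had 0 Wako reads. miR-3102-3p, from a hairpin with several annotated arms, had 1840 RPM with Wako and 42.7 RPM with ExoQuick, a ratio of 43.0 (29.6 to 62.7), and no read in MC38.

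The let-7 family accounted for more of the Wako library than of the ExoQuick library. let-7 miRNAs hold back growth-promoting genes such as Ras and Hmga2 in differentiated tissue and are themselves blocked by Lin28. The 11 guide strands, miR-98-5p included, summed to 284667 RPM with Wako and 66687 RPM with ExoQuick, a ratio of 4.27 (4.18 to 4.36). Of the 11, 7 were called higher and 0 lower, against 23.7% and 2.57% of all 350. Their median log2 ratio was 3.01, and that of the 140 miRNAs at a mean of 300 RPM was 0.30. In MC38 the sums were 302819 RPM with Wako and 57961 RPM with ExoQuick, a ratio of 5.22 (4.92 to 5.54). There too 7 were called higher, but with let-7b-5p in place of miR-98-5p.

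The members did not move as one. let-7b-5p was the most abundant miRNA of the C26 Wako library at 71976 RPM, against 42232 RPM with ExoQuick, a ratio of 1.70 (1.64 to 1.78). let-7i-5p had 12911 RPM with Wako and 9194 RPM with ExoQuick, a ratio of 1.40 (1.27 to 1.55). Both of these ratios fall below 1 with median-of-ratios, upper-quartile and TMM scaling, and that of let-7i-5p also when the 10 most abundant miRNAs are left out of the scaling. let-7a-5p, by contrast, had 51793 RPM with Wako and 2569 RPM with ExoQuick, a ratio of 20.2 (19.02 to 21.4).

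let-7f-5p had the highest ratio of the family at 48.0 (43.6 to 53.0), from 26861 RPM with Wako and 559 RPM with ExoQuick. let-7e-5p followed at 21.1 (18.9 to 23.4), from 15553 RPM with Wako and 739 RPM with ExoQuick. The intervals of let-7e-5p and let-7a-5p overlap. let-7d-5p had a ratio of 17.2 (15.97 to 18.4) and let-7g-5p one of 14.3 (12.6 to 16.2). let-7c-5p stood at 61676 RPM with Wako and 7656 RPM with ExoQuick, a ratio of 8.06 (7.68 to 8.45). With Wako, let-7b-5p, let-7c-5p and let-7a-5p were thus close in level, whereas let-7b-5p stood far above the other members with ExoQuick.

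miR-98-5p and rare members completed the family. miR-98-5p, from the same X-linked transcript as let-7f-2, had 1098 RPM with Wako and 273 RPM with ExoQuick, a ratio of 4.02 (2.78 to 5.64). let-7j, whose RefSeq seed GAGGUAU differs from that of the rest, had 237 RPM with Wako and 90.7 RPM with ExoQuick, a ratio of 2.62 (1.11 to 5.33) that falls below 1 with TMM scaling. let-7k had 326 RPM with Wako and 797 RPM with ExoQuick, a ratio of 0.409 (0.204 to 0.735), the only member of the 11 below 1.

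Read against the printed sequences, the order of the ratios followed the bases near the 3′ end, a pattern that was noticed after the values were seen. Substitutions are given from let-7a-5p to the member, counted from 1 at the 5′ end. The 5 members that match let-7a-5p at positions 17 and 19, let-7a-5p itself included, had ratios from 14.3 to 48.0: let-7d-5p (U1A and U16C), let-7e-5p (U9G), let-7f-5p (G12A) and let-7g-5p (G12U and U18C). let-7c-5p, which differs by A19G alone, had 8.06, and miR-98-5p, with G11A and A19U, had 4.02. The 4 members with A17G had the lowest ratios, from 0.409 to 2.62: let-7j (G8U, G12U, A17G, U18C and A19U, over its first 22 bases), let-7b-5p (A17G and A19G), let-7i-5p (G12U, A17G, U18C and A19U) and let-7k (U9G, A17G and A19G, over its 19 bases). The intervals of let-7j and miR-98-5p overlap.

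In MC38 the 5 members without a difference at positions 17 and 19 had ratios from 8.06 to 15.2, and the 4 with A17G had ratios from 0.816 to 2.90. let-7c-5p was not lower than the 5 there, at 13.0 (11.7 to 14.3). miR-98-5p had 0 Wako reads in MC38. Reads of members that differ by 1 base can be assigned to either, and how the authors counted reads that match several members is not given in the sources used here. The plot of the let-7 levels shows each member in both lines.

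**Figure D2:**
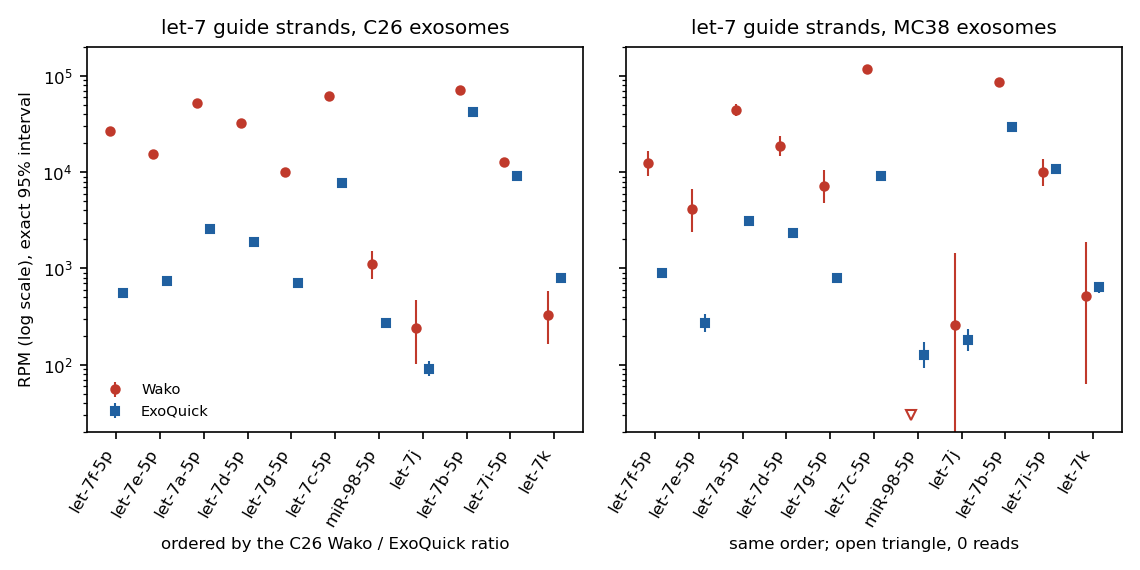
Level of each let-7 guide strand in RPM (log scale) with Wako (red circles) and ExoQuick (blue squares), in C26 on the left and MC38 on the right, with exact 95% counting intervals. Members run from the highest to the lowest C26 ratio: the pairs are far apart from let-7f-5p to let-7c-5p and close for let-7b-5p and let-7i-5p, and the open triangle marks 0 reads of miR-98-5p with MC38 Wako.

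The passenger strands of the family did not follow the guide strands. The 10 that met the limit summed to 15286 RPM with Wako and 16494 RPM with ExoQuick, a ratio of 0.927 (0.848 to 1.01). Only let-7b-3p of the 10 was called higher, against 23.7% of all 350. It had 1900 RPM with Wako and 473 RPM with ExoQuick, a ratio of 4.01 (3.06 to 5.20). let-7d-3p, the most abundant passenger, had 12228 RPM with Wako and 14387 RPM with ExoQuick, a ratio of 0.850 (0.769 to 0.937).

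The 2 most abundant miRNAs of the ExoQuick library, miR-130a-3p and miR-25-3p, were both called lower with Wako. miR-130a-3p had 62389 RPM with Wako and 178339 RPM with ExoQuick, a ratio of 0.350 (0.335 to 0.365). RefSeq places Mir130a on the minus strand of chromosome 2, from 84741115 to 84741178, with no same-strand host gene in the annotation. Mir25, the hairpin of miR-25-3p, lies within the replication gene Mcm7, on chromosome 5 from 138165321 to 138165404 on the minus strand. miR-25-3p had 67731 RPM with Wako and 175751 RPM with ExoQuick. That is a ratio of 0.385 (0.370 to 0.402).

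The members of the miR-130 seed family split. miR-130b-3p had 11575 RPM with Wako and 23168 RPM with ExoQuick, a ratio of 0.4996 (0.451 to 0.552) whose interval holds the limit of 0.5. miR-301a-3p has the same seed as shown above and differs from both miR-130 members in most of its 3′ part. It had 1395 RPM with Wako and 101.7 RPM with ExoQuick, a ratio of 13.7 (9.63 to 19.2). miR-301b-3p, with 7 Wako and 27 ExoQuick reads, had a ratio of 10.4 (3.84 to 24.6). The same split was found in MC38, where miR-130a-3p and miR-130b-3p had ratios of 0.302 (0.278 to 0.328) and 0.302 (0.239 to 0.378), and miR-301a-3p had 14.3 (7.53 to 25.4). Since the rarer members carry few reads, the seed family as a whole was lower, with a summed ratio of 0.375 (0.360 to 0.390).

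The remaining members of the Mcm7 cluster followed miR-25-3p in part. miR-93-5p had 18669 RPM with Wako and 31958 RPM with ExoQuick, a ratio of 0.584 (0.539 to 0.632), and miR-106b-3p had 0.430 (0.292 to 0.612). Neither passed the 2-fold limit. miR-106b-5p had 178 RPM with Wako and 53.1 RPM with ExoQuick, a ratio of 3.36 (1.19 to 7.67) on 6 Wako and 72 ExoQuick reads, which falls below 1 with TMM scaling. The 6 members together had a ratio of 0.423 (0.408 to 0.438) in C26 and 1.14 (1.04 to 1.24) in MC38.

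Within the miR-17-92 cluster and its X-linked paralog, the miR-19 members stood apart. miR-19a-3p and miR-19b-3p were both called lower. miR-19b-3p had 10507 RPM with Wako and 27215 RPM with ExoQuick, a ratio of 0.386 (0.347 to 0.429). miR-19a-3p had 653 RPM with Wako and 3097 RPM with ExoQuick, a ratio of 0.211 (0.132 to 0.320). miR-92a-3p of the same transcript had a ratio of 0.937 (0.868 to 1.01), miR-17-5p one of 1.14 (0.994 to 1.31) and miR-20a-5p one of 1.01 (0.624 to 1.56). Of the 9 cluster members above the limit, 0 were called higher and 2 lower, against 23.7% and 2.57% of all 350.

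Other miRNAs called lower came from separate loci. miR-322-5p, the mouse counterpart of human miR-424, had 1069 RPM with Wako and 3942 RPM with ExoQuick, a ratio of 0.271 (0.190 to 0.376). miR-351-5p of the same X-linked cluster lay on the other side, with 2404 RPM with Wako and 120 RPM with ExoQuick, a ratio of 20.01 (15.1 to 26.3). miR-15b-3p had 8 Wako reads against 1664 ExoQuick reads, a ratio of 0.194 (0.083 to 0.382). miR-532-5p of the Clcn5 intron had 8 Wako reads against 1294 ExoQuick reads, a ratio of 0.249 (0.107 to 0.492). miR-674-5p had 4511 RPM with Wako and 10682 RPM with ExoQuick, a ratio of 0.422 (0.358 to 0.495).

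The mesenchymal miRNAs miR-199 and miR-214, which are cut in part from the Dnm3os transcript on chromosome 1, were lower with Wako in their abundant arms. miR-214-3p had a ratio of 0.456 (0.429 to 0.485) and was called. miR-199a-3p and miR-199b-3p have the same sequence and the same values, 23566 RPM with Wako and 49078 RPM with ExoQuick, a ratio of 0.480 (0.447 to 0.515). miR-199a-5p had 4126 RPM with Wako and 3857 RPM with ExoQuick, a ratio of 1.07 (0.897 to 1.27). The 6 members summed to a ratio of 0.492 (0.470 to 0.514) in C26 and of 30.1 (24.96 to 36.2) in MC38.

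Several abundant miRNAs differed by less than 2-fold. miR-23a-3p had 49478 RPM with Wako and 42199 RPM with ExoQuick, a ratio of 1.17 (1.12 to 1.23) that falls below 1 with each scaling other than the sum of listed reads. miR-24-3p of the same cluster had 26416 RPM with Wako and 39990 RPM with ExoQuick, a ratio of 0.661 (0.618 to 0.706). miR-21a-5p, a miRNA raised in many tumours, had 21756 RPM with Wako and 32249 RPM with ExoQuick, a ratio of 0.675 (0.626 to 0.726). miR-31-5p, another miRNA raised in colorectal tumours, was called higher, with 37338 RPM with Wako and 4475 RPM with ExoQuick, a ratio of 8.34 (7.85 to 8.87). Its MC38 ratio was 8.39 (5.28 to 12.8).

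The miR-125 family, vertebrate relatives of the worm lin-4, was higher with Wako in every guide that met the limit. miR-125b-5p had 21429 RPM with Wako and 2717 RPM with ExoQuick, a ratio of 7.89 (7.27 to 8.55). miR-125a-5p had 13297 RPM with Wako and 1784 RPM with ExoQuick, a ratio of 7.45 (6.72 to 8.25). Together with miR-351-5p these hold the seed CCCUGAG, and all 3 were called higher. miR-99b-5p, which is cut from the same transcript as miR-125a and let-7e, had a ratio of 0.875 (0.748 to 1.018), whose interval holds 1 with the authors' totals. With median-of-ratios, upper-quartile, TMM and top-10-free scaling that interval lies wholly below 1. Of the 8 members of the miR-125, miR-99 and miR-100 families, 2 were called higher and 0 lower, against 23.7% and 2.57% of all 350, with a summed ratio of 3.24 (3.07 to 3.42) that falls below 1 with TMM scaling.

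Of the miRNAs of white blood cells, the rarest in the ExoQuick library differed most. miR-150-5p, which marks mature lymphocytes, had 1632 RPM (55 reads) with Wako and 11.8 RPM (16 reads) with ExoQuick, a ratio of 138 (78.2 to 259). miR-223-3p, which marks granulocytes and their precursors, had 979 RPM (33 reads) with Wako and 7.37 RPM (10 reads) with ExoQuick, a ratio of 132.9 (64.0 to 302). miR-142a-3p, found across blood lineages, had 594 RPM with Wako and 53.1 RPM with ExoQuick, a ratio of 11.2 (6.45 to 18.6). The opposite arm miR-142a-5p was the most abundant of the list and had 2909 RPM with Wako and 4584 RPM with ExoQuick, a ratio of 0.635 (0.514 to 0.775).

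Of the 7 white cell miRNAs above the limit, 3 were called higher and 0 lower, against 23.7% and 2.57% of all 350, and the summed ratio was 1.33 (1.16 to 1.51), which falls below 1 with median-of-ratios, upper-quartile, TMM and top-10-free scaling. In MC38 the list had a ratio of 0.336 (0.235 to 0.465), where miR-146a-5p alone stood at 2586 RPM with Wako and 22983 RPM with ExoQuick. miR-150-5p had 3 Wako and 0 ExoQuick reads there, and miR-223-3p had 0 Wako and 7 ExoQuick reads. Of the red cell and liver miRNAs 2 of 7 were called higher, near the 23.7% of all 350, and 0 lower, with a summed ratio of 0.974 (0.907 to 1.04). miR-486a-5p and miR-486b-5p share their values, 742 RPM with Wako and 213 RPM with ExoQuick, a ratio of 3.48 (2.22 to 5.25) that falls below 1 with TMM scaling. miR-451a and miR-144-5p, just below the limit of 10 reads, had 237 and 208 RPM with Wako, and 6.63 RPM each with ExoQuick. miR-122-5p, the main miRNA of hepatocytes, lay the other way with 59.4 RPM (2 reads) with Wako and 413 RPM (561 reads) with ExoQuick, a ratio of 0.144 (0.017 to 0.521). These markers are few and scarce, and the part of blood-derived material in the other ratios was not tested.

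The 28 lists are drawn together in the plot of summed ratios, and their counts stand against 23.7% called higher and 2.57% lower of all 350. Beside those above, the miR-30 guides had 1 of 5 called higher (miR-30c-5p, 12.5) and a summed ratio of 4.42 (3.06 to 6.22). The Sfmbt2 intron cluster had 2 of 16 called higher, miR-669a-3p and miR-669o-3p with shared values, and a sum of 2.98 (2.19 to 3.98) that falls below 1 with TMM scaling. The miR-181 guides had 1 of 4 called higher, miR-181a-5p at 16.96 (6.42 to 40.6) on 8 Wako and 19 ExoQuick reads. The miR-23, miR-27 and miR-24 clusters had 2 of 9 called higher, miR-23a-5p and miR-27a-5p, of which miR-27a-5p had met the limit of 10 reads through Wako alone. The Gnas region had 1 of 3, miR-296-5p.

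Calls were absent from 7 lists: miR-143 and miR-145, miR-221 and miR-222, miR-10 and miR-196, the miR-29 guides, the miR-378 family, the miR-15, miR-16 and miR-195 guides, and the miR-34 and miR-449 family. Their summed ratios ran from 0.776 (0.688 to 0.872) for miR-143 and miR-145 to 1.19 (0.995 to 1.41) for miR-378. Of the 9 miRNAs reported elsewhere in plasma bound to Argonaute outside vesicles, 3 were called higher and 0 lower, against the same 23.7% and 2.57%, and their sum had a ratio of 0.837 (0.796 to 0.879). Of the 10 linked elsewhere to muscle wasting or fat loss, a syndrome that C26 tumours cause in mice, 1 was called higher, and their sum had a ratio of 0.959 (0.922 to 0.996).

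**Figure D3:**
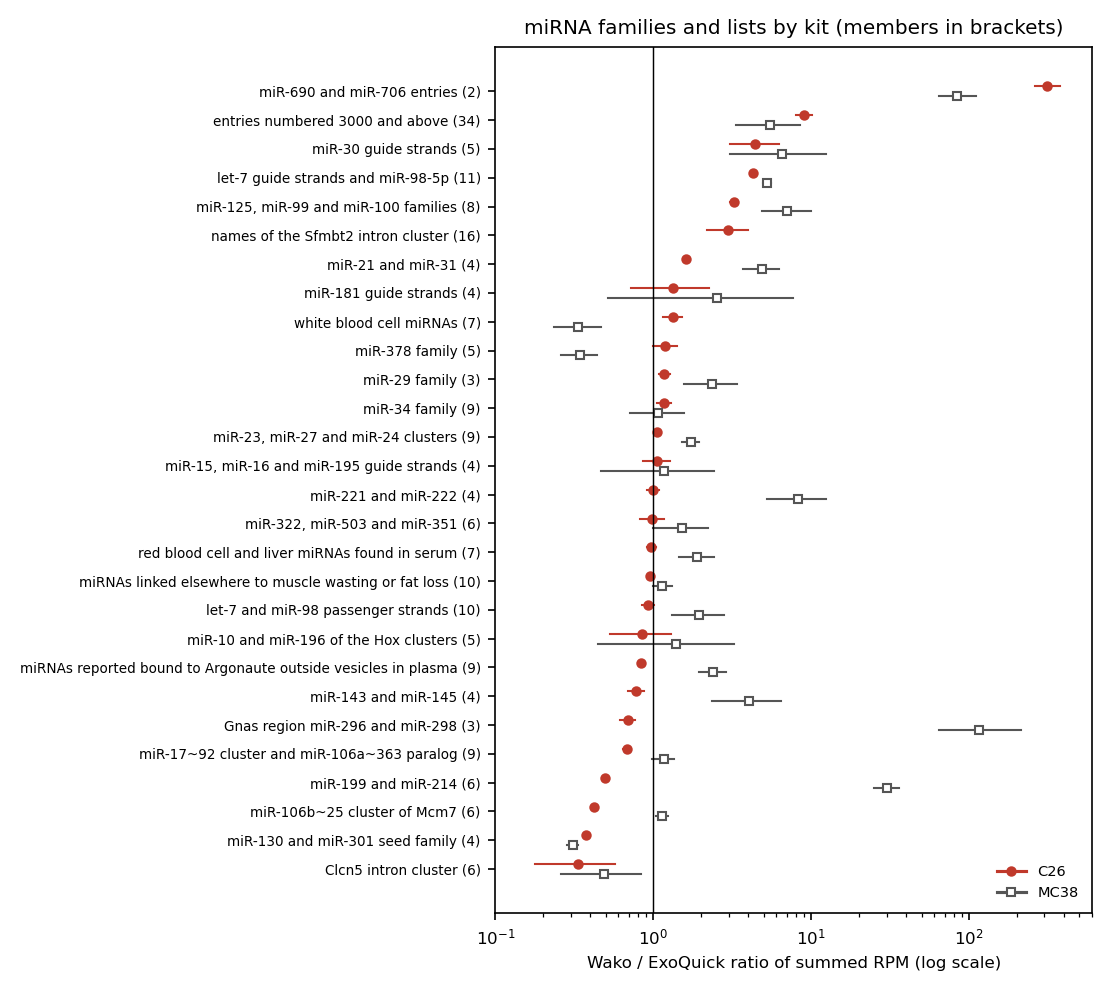
Ratio of summed RPM, Wako over ExoQuick, for the 28 lists (log scale) in C26 (red circles) and MC38 (grey squares), with exact 95% counting intervals and the number of C26 members in brackets. In C26 the sums run from 0.336 for the Clcn5 intron cluster to 312 for miR-690 and miR-706, and most lists lie between 0.5 and 2. The miR-199 and miR-214 list and the Gnas region list are below 1 in C26 and far above it in MC38.

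Sharing a seed did not fix the ratio. Of 14 seed families with at least 2 separate members at a mean of 300 RPM, 10 spanned more than 1 log2 unit between their lowest and highest member, and the median span was 1.96 log2 units. miR-132-3p and miR-212-3p, which are cut from neighbouring hairpins of 1 transcript and share the seed AACAGUC, are an example. miR-132-3p had 445 RPM with Wako and 428 RPM with ExoQuick, a ratio of 1.04 (0.578 to 1.73) that falls below 1 with median-of-ratios, upper-quartile, TMM and top-10-free scaling. miR-212-3p had 861 RPM with Wako and 38.3 RPM with ExoQuick, a ratio of 22.5 (13.7 to 36.0). In 6 of the 14 families called and uncalled members stood side by side. The miR-130 and miR-301 family alone held both a member called higher and one called lower. A member that met the limit on the mean through Wako alone had to be higher with Wako. Among those that did so were miR-212-3p, miR-301a-3p, miR-30a-3p, miR-30e-3p, miR-351-5p, let-7f-1-3p and miR-98-5p. miR-29c-3p met the limit through ExoQuick alone. The limit thus in part sets the spans or calls of these families.

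The arms of 1 hairpin were read in different proportions by the kits. The share of an arm among the reads of both is the same under every scaling of the libraries. Both arms lay at a mean of 300 RPM in 25 hairpins, and in 20 of these the intervals of the arms' kit ratios did not overlap. That limit is on the mean of both kits, so an arm scarce with ExoQuick could enter only through a high Wako level. The arms miR-29b-1-5p, miR-25-5p, miR-142a-3p, miR-296-5p, miR-351-5p, miR-351-3p, miR-31-3p and let-7f-1-3p entered in that way. miR-15b-3p and miR-24-2-5p entered through ExoQuick alone. The count of 20 is thus partly set by the limit. The 5p arm had the higher ratio in 16 of the 25. In 7 hairpins one arm lay wholly above 1 and the other wholly below it on the authors' scale. That count depends on the scaling and was 12 with median-of-ratios and with upper-quartile scaling, and 11 with TMM.

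Among the 25, Mir29b-1 differed most in the share of its 5p arm. Its 5p arm miR-29b-1-5p had 2642 RPM (89 reads) with Wako and 28.7 RPM (39 reads) with ExoQuick, a ratio of 91.9 (62.4 to 138). miR-29b-3p, the guide of the miR-29 family that represses collagens, had 1276 RPM with Wako and 2627 RPM with ExoQuick, a ratio of 0.486 (0.351 to 0.656). The 5p arm thus made up 67.4% (58.7 to 75.3%) of the reads of both arms with Wako and 1.08% (0.77 to 1.48%) with ExoQuick. Since miR-29b-3p is also cut from another hairpin, its reads cannot be assigned to Mir29b-1 alone. MC38 held 4 Wako reads of both arms, too few to set beside this.

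Mir25 gave the same picture at a lower level. miR-25-5p had 979 RPM with Wako and 38.3 RPM with ExoQuick, a ratio of 25.6 (16.003 to 40.3), while miR-25-3p was called lower. The 5p share was 1.43% (0.98 to 1.996%) with Wako and 0.02% with ExoQuick, and in MC38 0.998% with Wako and 0.07% with ExoQuick. For Mirlet7d the share of the 5p guide was 72.5% (70.2 to 74.8%) with Wako and 11.6% (11.1 to 11.98%) with ExoQuick. In MC38 it was 74.5% with Wako and 44.9% with ExoQuick. For Mir23a it was 17.96% (16.3 to 19.7%) with Wako and 1.74% (1.63 to 1.85%) with ExoQuick, with miR-23a-5p at a ratio of 14.5 (12.9 to 16.4). In MC38 it was 18.3% with Wako and 7.29% with ExoQuick.

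The 5p share was also higher with Wako for Mir125a (88.4% with Wako against 51.6% with ExoQuick) and Mir296 (45.2% with Wako against 9.42% with ExoQuick). The share was lower with Wako for Mir142 (83.1% with Wako against 98.9% with ExoQuick) and Mir423 (92.4% with Wako against 98.7% with ExoQuick). In MC38 Mir142 went the other way, with 86.4% of 22 reads with Wako and 60% of 20 reads with ExoQuick, and the share of Mir423 was 90.4% with Wako and 98.9% with ExoQuick. The MC38 share of Mir125a was 81.8% of 11 reads with Wako and 26.4% of 121 reads with ExoQuick, and Mir296 had 5 reads with Wako and 6 with ExoQuick. In C26 Mir142 and Mir423 the 3p arm, rare with ExoQuick, was called higher: miR-142a-3p as above and miR-423-3p with a ratio of 3.15 (2.16 to 4.44), which falls below 1 with TMM scaling.

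**Figure D4:**
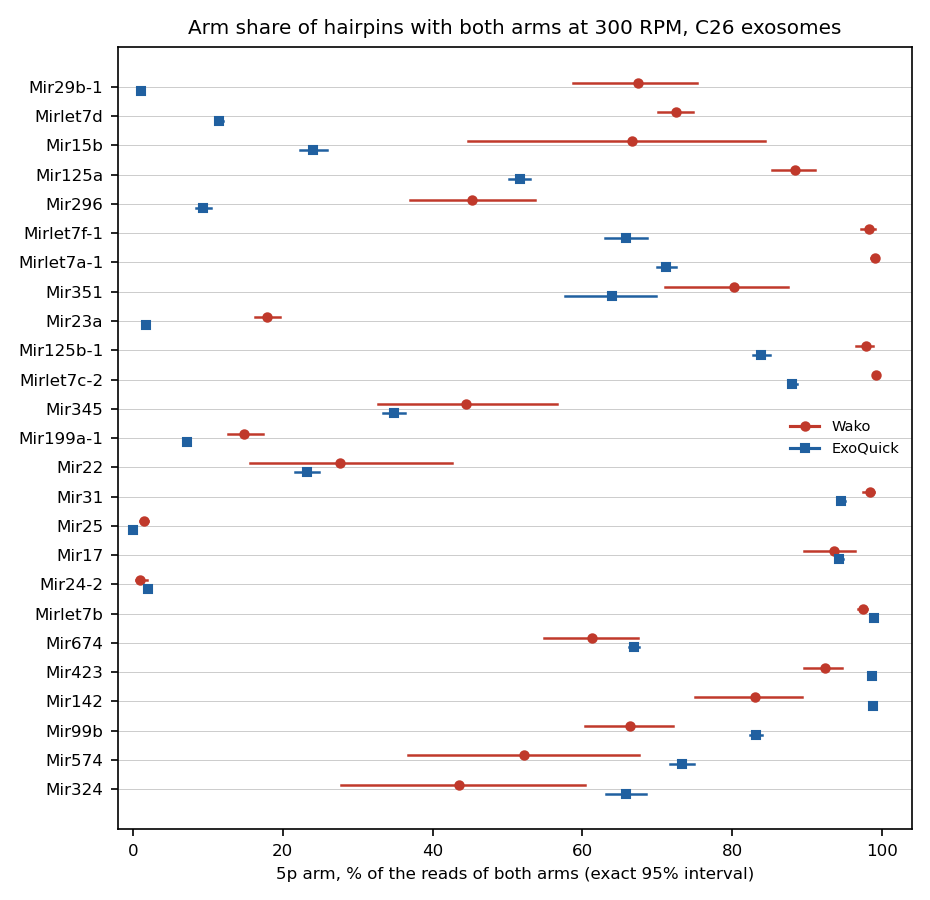
Share of the 5p arm among the reads of both arms, in percent, with Wako (red circles) and ExoQuick (blue squares) for the 25 hairpins with both arms at a mean of 300 RPM, with exact 95% intervals. Hairpins are ordered by the difference between kits, from Mir29b-1 (67.4% with Wako, 1.08% with ExoQuick) at the top to Mir324 at the bottom. Where an arm can come from several hairpins, its whole count is used.

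Other miRNAs at a mean of 300 RPM that were called higher with Wako came from further loci. miR-191-5p had 13030 RPM with Wako and 2608 RPM with ExoQuick, a ratio of 4.997 (4.51 to 5.52). miR-342-3p had 4304 RPM with Wako and 624 RPM with ExoQuick, a ratio of 6.89 (5.74 to 8.23). miR-126a-5p, from the endothelial gene Egfl7, had 1425 RPM with Wako and 65.6 RPM with ExoQuick, a ratio of 21.7 (14.96 to 31.2). miR-365-2-5p had 1336 RPM with Wako and 22.8 RPM with ExoQuick, a ratio of 58.5 (36.2 to 95.6), and 0 Wako reads in MC38. miR-151-5p stood at 17.2 (12.2 to 23.9) and miR-615-3p at 10.9 (7.30 to 15.98). The MC38 ratio was 3.96 (2.39 to 6.19) for miR-191-5p and 14.9 (8.67 to 24.4) for miR-342-3p.

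The sequence itself was related to the ratio in a few respects, described here without a test over 119 separate sequences at a mean of 300 RPM. Of the 140 miRNAs at that mean, 35 reached 300 RPM with Wako alone and so had to be higher with Wako. The counts by sequence are partly set by this limit. The 48 that begin with U had a median log2 ratio of 1.16, against 0.03 for the rest, and 21 of them were called higher, where 34.5% of the 119 were called higher and 6.72% lower. The 33 that begin with C had a median of −0.23, and 8 were called higher and 4 lower. Weighted by reads, sequences that begin with U made up 46.1% with Wako and 26.2% with ExoQuick, and those that begin with C made up 25.4% with Wako and 50.7% with ExoQuick. The let-7 guides, most of which begin with U, and miR-130a-3p and miR-25-3p, which begin with C, carry much of this difference in reads. The let-7 guides also carry part of the count called higher among those that begin with U. Of the 10 members with the let-7 seed at that mean, 7 were called higher. All of the 10 but the let-7d guide begin with U. Whether the median and the count for U differ from the rest without this family was not tested.

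The presence of 3 letter strings was searched in the mature RNA, on the strand that is printed. CCCU occurs in 11 of the 119 sequences (11.4% of the 1679 RefSeq mature sequences hold it), and 8 of the 11 were called higher, against 34.5% of the 119, with a median log2 ratio of 2.90. Of these 8, miR-351-5p and the miR-125 guides hold it in their shared seed. Among the 8, miR-351-5p, miR-706, miR-296-5p and miR-615-3p had met the limit on the mean through Wako alone. With ExoQuick miR-296-5p stood at 253 RPM and miR-615-3p at 95.1 RPM. Such miRNAs had to be higher with Wako, so the count of 8 is partly set by that limit. GGAG, in 14 of the 119 (14.2% of RefSeq), had a median of 0.02, with 4 called higher and 1 lower. CAUG, in 7 (7.92% of RefSeq), had a median of 0.01, with 1 called higher and 2 lower. Base composition was not related to the ratio across the 119, with a Pearson r of −0.0007 and a Spearman rho of 0.05 for GC share. For length the Pearson r was −0.05. The 8 entries without an arm in their name, miR-690, miR-706, miR-5100 and miR-3963 among them, had a median of 4.32, and 6 were called higher. At this mean such an entry can have met the limit through Wako alone, as miR-690, miR-706, miR-5100 and miR-3963 all did. These named entries thus had to be higher with Wako.

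The MC38 ratios are set beside the C26 ratios here with the limit given above, that they cannot be taken as independent. The MC38 Wako library was closer to the C26 Wako library than to the ExoQuick library of its own line. Likewise, the ExoQuick libraries of the 2 lines were closer to each other than to the Wako library of their own line. By Spearman rho, though not by Pearson r, MC38 Wako was also closer to C26 ExoQuick (0.687) than to MC38 ExoQuick (0.673). Of the 83 miRNAs called higher in C26, 44 had an MC38 interval wholly above 1, 0 had one wholly below 1 and 39 had one that held 1, of which 10 had no MC38 read at all. In MC38, 37 of the 83 were themselves called higher, against 16.9% of all 350. Of the 9 called lower in C26, 4 lay wholly below 1 in MC38, 2 wholly above it and 3 held it. Only 1.71% of the 350 were called lower in MC38. Among the 140 at a mean of 300 RPM in C26, the calls in MC38 were 32.1% higher and 3.57% lower. Over the 114 miRNAs at a mean of 300 RPM in C26 with reads in both MC38 libraries, 78 had the same sign in both lines. With median-of-ratios scaling within each line, 95 had it. The log2 ratios of the 114 had a Pearson r of 0.53 and a Spearman rho of 0.57 across miRNAs. The median log2 ratio of these 114 was 1.68 in MC38 and 0.23 in C26.

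Of the 9 called lower in C26, the 4 wholly below 1 in MC38 were miR-130a-3p, miR-19b-3p, miR-532-5p and miR-674-5p. Their MC38 ratios ran from 0.302 to 0.748. On the authors' scale, 13 miRNAs were opposite in the 2 lines, with both intervals clear of 1. Each was lower with Wako in C26 and higher with Wako in MC38. Among them were miR-298-5p, with 5995 RPM with Wako and 12255 RPM with ExoQuick in C26 and 6206 RPM with Wako and 47.0 RPM with ExoQuick in MC38, and miR-142a-5p, with 4913 RPM with Wako and 35.2 RPM with ExoQuick in MC38. For both, the Wako levels of the lines lay within a factor of 2 of each other, and the ExoQuick levels were more than 100 times apart. The plot of the named miRNAs sets the ratios of both lines side by side.

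**Figure D5:**
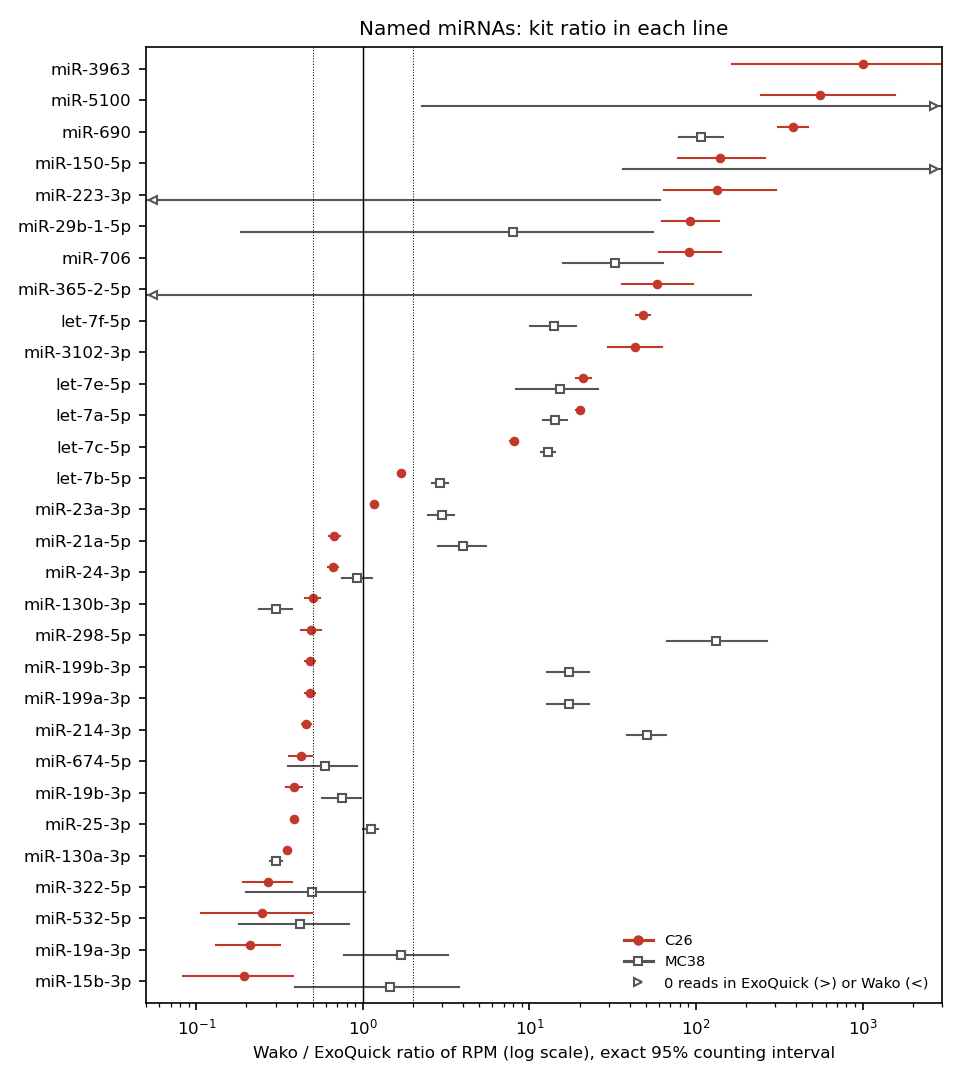
Kit ratio, RPM with Wako over RPM with ExoQuick (log scale), of the named miRNAs in C26 (red circles) and MC38 (grey squares), with exact 95% counting intervals and dotted lines at 0.5 and 2. Arrowheads mark ratios with 0 reads in 1 MC38 library. miR-690, miR-706 and the let-7 members lie to the right of 1 in both lines, miR-130a-3p lies to the left in both, and miR-214-3p, miR-199a-3p and miR-298-5p are on opposite sides.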

How the data were processed

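Small RNA of exosomes from C26 and MC38 cells was sequenced on an Illumina instrument, per the labels, 1 library for each line and kit. The deposited signal is, per the values, the reads of each miRNA divided by a library total and scaled to 1000000. Every value was a whole number of reads within a tolerance of 0.006. DESeq2 is named in the submitters' processing notes. For the aligner, the genome build and the treatment of reads that match several miRNAs, the sources used here give nothing.

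Reads were recovered, and ratios and exact 95% Clopper-Pearson intervals were computed with Python 3.11.15 and scipy 1.17.1. A sum counts rows that share all values in the 4 libraries once, as 30 of the 350 miRNAs (12 profiles) do. In log2 medians 0 reads were set to 0.5 read. TMM factors came from edgeR 4.0.16. The interval code was tested on simulated data. The 350 miRNAs and the 28 lists were chosen with earlier results of these data known. Named miRNAs are the 12 per direction, at a mean of at least 300 RPM, whose interval lies farthest from 1, the 10 with the highest mean, and list members. Calls, scalings and filters were varied as reported at the end. RefSeq held no entry here for miR-150-5p and miR-532-5p.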

Additional observations from a re-analysis of the deposited data

Results flagged for a closer look

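On the authors' scale, some named miRNAs had kit ratios on opposite sides of 1 in the 2 lines, with both intervals clear of 1. The ratio, Wako over ExoQuick, was 0.456 in C26 and 50.8 in MC38 for miR-214-3p. It was 0.48 in C26 and 17.3 in MC38 for miR-199a-3p and for miR-199b-3p, which share their sequence and values. For miR-298-5p it was 0.489 in C26 and 132 in MC38. For miR-21a-5p it was 0.675 in C26 and 3.98 in MC38, and for miR-25-3p it was 0.385 in C26 and 1.11 in MC38, where the MC38 interval began at 1.01. Each ratio rests on 1 library a side, whether the MC38 Wako library holds material or reads of the C26 Wako library was not tested, and the difference between the lines was not tested.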

How the results depend on the processing

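No paired analysis was possible because C26 has 1 library a kit, and for the same reason no library could be left out. A model that pairs the kits over both lines, with 1 residual degree of freedom, was not run. With the authors' totals 83 miRNAs were called higher with Wako and 9 lower, the median log2 ratio at a mean of 300 RPM was 0.30, and the let-7 guides had a summed ratio of 4.27. The count called higher was 41 with TMM scaling, 51 at a limit of 50 reads and 47 at a mean of 300 RPM, where fewer miRNAs are counted. The count called lower was 35 with median-of-ratios scaling, 90 with TMM, 35 with upper-quartile scaling and 28 without the 10 most abundant miRNAs. It was 41 where the interval had to pass 1 and 0 where it had to pass 4-fold. The median was −0.50, −1.56, −0.55 and −0.26 under those 4 scalings in that order, 0.83 at a mean of 100 RPM and 0.16 at 1000 RPM. The let-7 ratio was 4.36 with the sum of listed reads, and 2.45, 1.18, 2.38 and 2.91 under the same 4 scalings. The scalings move every ratio by 1 factor, which by construction gives these changes. The same sign in both lines was found for 78 of 114 miRNAs, and for 48 of 74 at a mean of 1000 RPM. With median-of-ratios scaling within each line it was found for 95 of 114. No named miRNA changed from called higher to called lower, or the reverse, under any scaling, but shifts of this size could not have produced such a change. With TMM scaling the ratios of 5 of the 83 called higher fell below 1. With the sum of listed reads 85 were called higher and 7 lower, and miR-532-5p and miR-674-5p lost their lower call. The Wako depth of 33692 reads limits what can be called lower.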
